A study of Prunus persica and Prunus armeniaca with 129 samples.

Results

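The genes described here were the 150 apricot genes whose transcript level stood out most in libraries labelled flower. They were chosen by their own values: reads per gene were divided by the library total and scaled to CPM (counts for every 1e6 counts of the library), libraries were averaged over 5 stages, and genes with the largest mean in flowers were ranked by log2 of the flower mean plus 1 over the second largest stage mean plus 1. Of 26872 genes, 4510 had their largest mean in flowers, and the top 150 of these were taken. Since the flower level chose the genes, their excess over other apricot stages is a description and was not tested.

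Flowers of apricot and peach open after a winter in which the floral bud first stays closed whatever the weather (endodormancy) and then, once enough cold has been met, waits only for warmth (ecodormancy). Between bud break and bloom the sepals and then the petals become visible, pollen matures, nectaries and scent and colour pathways become active, and the petals later senesce. Few of the 150 genes carried an annotation in the study's tables, so most are given by their gene model alone.

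Gene expression was measured by RNA-seq of floral buds, buds with visible sepals or petals, and flowers from 4 apricot genotypes, and of floral buds from 4 peach genotypes. In apricot, the early blooming A2137 (Bakour) and A1956 (Palsteyn) were in flower at 800 chill hours (CH, the hours of winter cold a tree has met), whereas the late blooming A1267 (Badami) and A660 (Bergeron) were still in bud then. The stages of the rule were flower (3 libraries of A2137 and 2 of A1956 at 800 CH), petal visible and sepal visible (11 libraries each), ecodormant buds (A2137 at 400 CH and A660 at 800 CH, 5 libraries) and dormant buds (all 17 libraries at 0 and 100 CH). The other 11 apricot libraries, buds of A1956, A660 and A1267 at 400 CH and of A1267 at 800 CH, took no part in it. In peach, the low chill genotypes A209 and A340 were sampled at 0, 100 and 600 CH and at pre-bloom, and the high chill genotypes A318 and A323 at 0, 100, 600 and 1000 CH and at pre-bloom. These are F2 genotypes from the cross of Fla.92-2C with Contender, grown as clones in South Carolina, and no peach flower was sampled. In apricot, grown in France, each library held the buds of an individual tree, and replicates are trees of 1 genotype. No group carried a treatment other than the season itself, and reads of both species were aligned to the peach genome.

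Library totals ran from 7593825 to 26253101 reads in apricot and from 494799 to 26858662 in peach (median 9692141), so 3 reads corresponded to 0.114 to 0.395 CPM in apricot and to 0.112 to 6.06 CPM in peach. Markers of the labelled stages were checked first. The 5 dormant bud genes were DAM4, DAM5, DAM6, a LEA gene and CAP160. Their summed level was 42.5 to 62.6 CPM in A2137 flowers and 115 to 139 CPM in A1956 flowers. This level was below that of buds at 0 CH, with 494 CPM in A2137 and 1211 to 1341 CPM in A1956. It was above that of buds with petals visible, with 11.4 to 20.8 CPM in A2137 and 68.7 to 76.2 CPM in A1956. In low chill peach it went against the order of the labels: it was 872 to 1243 CPM in A209 and 453 to 1135 CPM in A340 at pre-bloom, against 273 to 484 CPM in A209 and 253 to 643 CPM in A340 at 600 CH. In high chill peach it was 104 to 163 CPM in A318 and 97.9 to 386 CPM in A323 at pre-bloom, against 388 to 1944 CPM in A318 and 439 to 1059 CPM in A323 at 1000 CH. The low chill pre-bloom libraries are therefore called the libraries labelled pre-bloom where a direction is drawn from them. The 3 tapetum genes (MS2, LAP6 and a chalcone and stilbene synthase gene), active in the anther layer that feeds young pollen, summed to 1884 to 2094 CPM in A2137 buds at 400 CH and to at most 2319 CPM in low chill peach at 600 CH, but only to 0.692 to 0.939 CPM in A2137 flowers and 2.71 to 4.33 CPM in A1956 flowers.

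In apricot the 150 genes together took up a large share of the RNA of A2137 flowers and a small share elsewhere. Their summed level was 248 to 987 CPM (median 369) in dormant buds, 756 to 6836 CPM (median 2202) in ecodormant buds, 981 to 1342 CPM (median 1191) with sepals visible and 783 to 2128 CPM (median 1264) with petals visible. In flowers it reached 37646, 31147 and 38041 CPM in A2137 and 7944 and 8797 CPM in A1956, which is 3.11% to 3.80% and 0.794% to 0.880% of the library. All 5 flower libraries lay above all others, but ecodormant A660 at 800 CH replicate 3, at 6836 CPM, came close to those of A1956, while the other A660 libraries at 800 CH had 2202 and 2222 CPM. Levels in whole buds and flowers do not tell a larger share of cells with a transcript from more of it per cell.

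**Figure D1:**
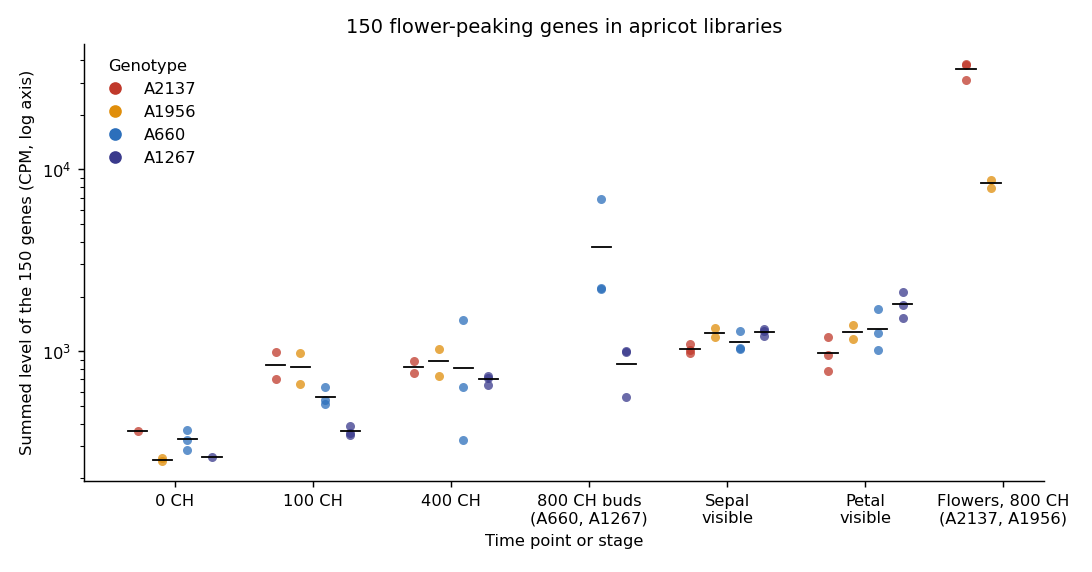
Summed level of the 150 genes in every apricot library (CPM, log axis) by time point or stage, coloured by genotype; points are libraries and bars are means. The A2137 flowers sit between 31147 and 38041 CPM and the A1956 flowers at 7944 and 8797 CPM, above every bud library.

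The level of single genes in flowers covered a wide range. The mean over the 5 flower libraries was 4.17 to 4462 CPM with a median of 41.6 CPM, and 44 genes were at 100 CPM or more, 81 at 10 to under 100 CPM and 25 below 10 CPM. The median of the second largest stage mean was 4.67 CPM, and 89 genes were below 1 CPM on average in dormant buds. The stage that came second was ecodormant buds for 71 genes, petal visible for 48, sepal visible for 25 and dormant buds for 6. Thus the stage next in time to the flower was not the most frequent second. The highest level outside flowers was in A660 at 800 CH replicate 3 for 53 genes, and leaving this library out of the rule kept 127 of the 150.

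Prupe.4G097000 had the highest value of the rule (5.81). Its level was 482, 310 and 407 CPM in A2137 flowers and 11.2 and 14.8 CPM in A1956 flowers, and it was at most 14.4 CPM in any other library of the rule. Its place at the top thus came from A2137, since the lower A1956 library was below the highest bud library. Prupe.1G032400 (483, 215 and 400 CPM in A2137 flowers, 21.6 and 26.5 CPM in A1956 flowers) and Prupe.5G074400 (167, 87.6 and 203 CPM against 6.4 and 7.13 CPM) came next, with at most 13.9 and 2.62 CPM in any other library of the rule. For both, every flower library was above every bud library. Prupe.1G440100 was nearly silent before bloom, at no more than 1.58 CPM in any library of the rule other than flowers, and had 93.4, 42.1 and 83.6 CPM in A2137 flowers and 2.64 and 3.0 CPM in A1956 flowers. The other genes among the 10 highest were Prupe.1G146400, Prupe.I000200, Prupe.2G141000, Prupe.1G369800, Prupe.1G529500 and Prupe.1G121800, with rule values of 4.12 to 4.62. Prupe.1G121800 differed little between the genotypes, with 315, 245 and 423 CPM in A2137 flowers and 208 and 244 CPM in A1956 flowers (log2 fold change 0.31), and all 5 of these libraries were above its highest bud value of 36.3 CPM.

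The most abundant genes were already present in buds. Prupe.2G305200 had 7348, 6141 and 7006 CPM in A2137 flowers and 825 and 992 CPM in A1956 flowers, but also 156 to 852 CPM in ecodormant buds and 12 to 406 CPM in dormant buds, so A1956 flowers overlapped the ecodormant buds. Prupe.6G141100 had 4938, 4047 and 4948 CPM in A2137 flowers and only 257 and 307 CPM in A1956 flowers, and reached 1478 CPM in A660 at 800 CH replicate 3. The A1956 flowers were thus below 1 bud library by a wide margin. Prupe.1G123100 (2333, 2965 and 3121 CPM in A2137 flowers, 1077 and 1186 CPM in A1956 flowers) was different, since both genotypes were far above its highest bud value of 285 CPM. Prupe.4G255600 (1892, 1365 and 1659 CPM in A2137, 117 and 121 CPM in A1956) and Prupe.6G267700 (1152, 757 and 1014 CPM in A2137, 349 and 391 CPM in A1956) completed the 5 highest, with up to 308 and 259 CPM in A660 at 800 CH replicate 3.

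Of the 150 genes, 8 carried an annotation in the study's supplementary tables and 1 more was named in its text, and they fell in different functional groups. Prupe.4G155200, a Kunitz family protease inhibitor of the kind that blocks trypsin-like proteases, was the most abundant of them, with 1350, 978 and 980 CPM in A2137 flowers and 81.8 and 117 CPM in A1956 flowers. Prupe.1G220700 matches Arabidopsis SAG29, a SWEET family sugar transporter gene that is induced in senescing leaves, and had 202, 202 and 194 CPM in A2137 flowers and 91.4 and 95.4 CPM in A1956 flowers. For both genes all A2137 flowers were above both A1956 flowers, and the gap was wider for the protease inhibitor gene. Prupe.2G261700 matches AZG1, a purine transporter gene, and had 109, 79.9 and 123 CPM in A2137 flowers and 51.1 and 59.4 CPM in A1956 flowers. Prupe.8G092800, an S-adenosylmethionine-dependent methyltransferase gene, had 94.1, 87.0 and 92.2 CPM in A2137 flowers and 28.6 and 28 CPM in A1956 flowers. Prupe.1G549600 matches STK (AGL11), a MADS-box gene of ovule identity in Arabidopsis, and had 76.1, 88.0 and 48.3 CPM in A2137 flowers and 18.4 and 28.9 CPM in A1956 flowers. In all 3 of these genes the genotypes did not overlap. Prupe.1G204700 matches the EP3 chitinase gene (56.5, 30.4 and 51.2 CPM in A2137 flowers, 9.51 and 15.5 CPM in A1956 flowers), and it was as high as 47.5 CPM in 1 dormant library, A2137 at 100 CH replicate 3. Prupe.2G230000, a bHLH transcription factor gene, had 32.8, 30.6 and 33.1 CPM in A2137 flowers and 9.7 and 13.1 CPM in A1956 flowers. The peroxidase gene Prupe.6G239400 (29.9, 22.7 and 38.1 CPM against 26.9 and 27.4 CPM) had overlapping levels in the flowers of both genotypes, and the UDP-glucosyl transferase gene Prupe.8G130400 had 10.8, 11.9 and 15.1 CPM in A2137 flowers and 9.04 and 6.85 CPM in A1956 flowers. By the words searched in these annotations, 1 gene each was listed under defence (the chitinase gene), secondary metabolism (the methyltransferase gene), proteolysis (the Kunitz inhibitor gene) and senescence (SAG29), 2 under transcription (the bHLH and STK genes) and 0 under cell wall, pollen and recognition, or hormone. The AZG1 and SAG29 annotations lacked the words searched for transport, although both genes code for transporters. The 142 genes without an annotation in those tables could not be placed in a list.

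The border of the set was not sharp. The last 2 genes taken, Prupe.1G166200 and Prupe.1G549600, and the first gene left out, Prupe.3G221300, all had a rule value of 2.06, and Prupe.1G169200, next after it, had 2.04. The median value over the 150 genes was 2.72. Scaling the libraries by TMM (trimmed mean of M values) kept 143 of the 150, and a pseudocount of 0.1 or 5 in place of 1 kept 114 or 110. Taking flowers of A2137 alone kept 140, whereas taking flowers of A1956 alone kept 44, so the set mostly reflects the flower of A2137.

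The flowers of the 2 genotypes were then set side by side. The same 5 libraries had chosen the genes and A2137 gave 3 of them, so these values are a description. Of the 150 genes, all of which passed the filter on low counts in apricot, 129 had every A2137 flower above both A1956 flowers, 8 had both A1956 flowers above every A2137 flower and 13 overlapped, beside 46% of all genes tested with every A2137 flower above and 22.5% with both A1956 flowers above. The edgeR fit over all genes called 71 higher in A2137 and 5 lower at a change of more than 2-fold, beside 3.16% of 22472 genes higher and 9.43% lower, and the median log2 fold change was 2.0 for the 150 genes and 0.04 for all genes. Without A1956 replicate 1 the fit called 44 higher. All these calls rest on the flowers that chose the genes, so they do not test the genotypes for the set. When the rule was run on A1956 flowers alone, the genes it took were called 5 higher and 90 lower in A2137, so the split turned round with the flowers that chose the genes.

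**Figure D2:**
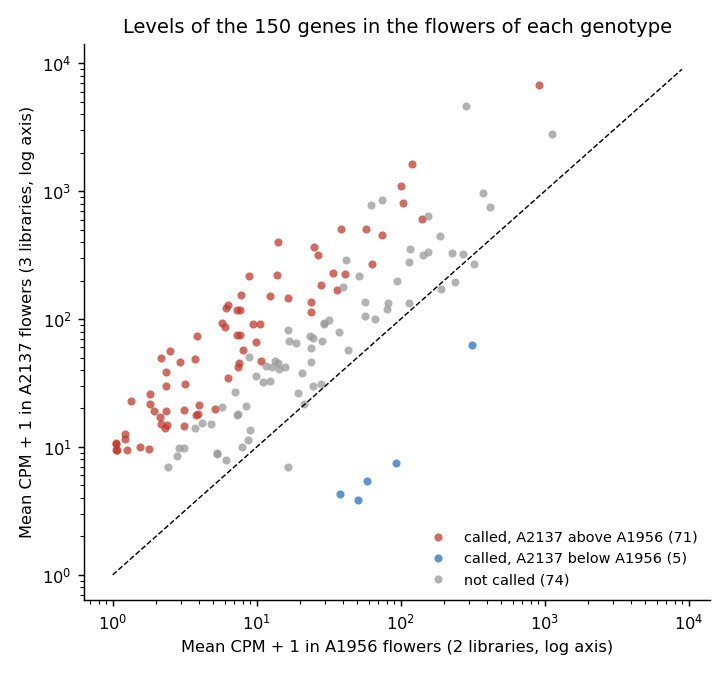
Mean level of each of the 150 genes in flowers of A2137 (vertical axis, 3 libraries) against flowers of A1956 (horizontal axis, 2 libraries), as CPM plus 1 on log axes; the dashed line marks equal levels. Most points lie above the line: 71 genes were called higher in A2137 and 5 lower. The same flowers chose the genes, so this is a description and not a test.

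Some genes were found in A2137 flowers and hardly at all in those of A1956. The genes named here are extremes among flowers that chose the set, so their values are a description too. Prupe.3G024900 had 6.92, 17.0 and 5.52 CPM in A2137 flowers, which was 507 reads in all, and 1 read over both A1956 flowers. The ratio of the levels was 235 with a counting interval of 41.9 to 9290, which covers counting error only. Prupe.7G132800 (501 reads in A2137, 1 read in A1956, ratio 232 with a counting interval of 41.4 to 9180) and Prupe.6G113300 (447 reads against 1 read, ratio 207 with an interval of 36.9 to 8190) were alike. Outside flowers none of the 3 exceeded 0.443 CPM in any library of the rule. Among the few in the opposite direction, Prupe.7G090200 had 3.96, 1.25 and 3.34 CPM in A2137 flowers and 41.2 and 57.2 CPM in A1956 flowers (log2 fold change -4.32 ± 0.69, SE), and Prupe.5G125600 had 7.1, 3.88 and 8.66 CPM against 81.7 and 102 CPM (-4.03 ± 0.49). Prupe.3G279500 (7.15, 1.82 and 4.43 CPM against 62.2 and 52.8 CPM, -3.91 ± 0.60) was the third, and its neighbour Prupe.3G279700 also had less in A2137 flowers (-2.57 ± 0.51). The A2137 flowers overlapped petal visible buds for Prupe.7G090200 and Prupe.5G125600, where those buds reached 9.26 and 5.62 CPM, and were above every sepal visible bud library. For Prupe.3G279500 they overlapped both stages, which reached 7.45 CPM with petals visible and 11.7 CPM with sepals visible.

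Some markers also differed between these flowers, whose labels do not say whether they were open. The 3 pollen genes had a mean summed level of 19.6 CPM in A2137 and 653 CPM in A1956, of which the Ole e 1 family gene Prupe.4G061100 made up 19.3 and 650 CPM (log2 fold change -5.30). The second Ole e 1 family gene, Prupe.3G204300, had 0.173 CPM in A2137 and 2.95 CPM in A1956 (-4.29), and the gamete expressed gene Prupe.1G133700 had 0.0571 CPM in A2137 and 0.0941 CPM in A1956 (-0.69) and was not called. Of 5 floral organ identity genes, the petal and stamen gene AP3 (-3.96) was the only one called, AP1, AG, STK (one of the 150 genes) and AGL6 had 0.35, -0.46, 1.34 and 0.12, and the 5 summed to 226 CPM in A2137 and 274 CPM in A1956. AP3 had 6.46 CPM in A2137 flowers, against 224 CPM in A2137 buds with petals visible. In A1956 it had 85.9 CPM in flowers, against 236 CPM with petals visible. The pollen sum with petals visible averaged 139 CPM in A2137 and 768 CPM in A1956. Among the senescence genes, SAG29 (one of the 150 genes) averaged 199 CPM in A2137 flowers and 93.4 CPM in A1956 flowers (log2 fold change 0.85). Prupe.7G220100 averaged 40.9 CPM in A2137 flowers and 27.3 CPM in A1956 flowers (0.34). Both were thus higher on average in A2137, but neither was called. The remaining gene of this list, Prupe.5G056500, was at 0 CPM in the flowers of both genotypes and was not tested. The part of these differences in the levels of the 150 genes was not tested.

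Late blooming A1267 offered a comparison of apricot buds that the rule had not used, 800 CH against 400 CH. The dormant bud genes differed between these buds, with sums of 269 to 437 CPM at 800 CH, against 3397 to 5390 CPM at 400 CH. The tapetum genes stayed low, at 0.576 to 1.27 CPM at 800 CH, against 0.218 to 1.09 CPM at 400 CH. So did the pollen genes, at 0.576 to 1.83 CPM at 800 CH, against 0.291 to 0.58 CPM at 400 CH. In the paper's clustering A1267 at 800 CH was not among the ecodormant buds. Few of the 150 genes moved. In edgeR's test against a 2-fold change, 9 rose and 4 fell, beside 2.95% of all genes tested that rose and 1.33% that fell, and the shares among the 150 genes were 6.0% and 2.67%. None of these 13 overlapped between the time points, and 2.94% of all genes tested rose and 1.33% fell without overlap. The median log2 fold change was 0.80, against 0 for all genes. Without A1267 800 CH replicate 3, 1 gene fell in place of 4.

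Prupe.8G174900 rose most in these buds, with 29.3, 81.5 and 33.6 CPM at 800 CH, against 1.07, 0.942 and 0.145 CPM at 400 CH. Its log2 fold change was 6.14 ± 0.64 (SE, n = 3 each; edgeR, Benjamini-Hochberg adjusted p = 2.42e-08). The methyltransferase gene Prupe.8G092800 had 7.07, 12.1 and 4.92 CPM at 800 CH, against 0.32, 0.362 and 0.291 CPM at 400 CH (4.63 ± 0.51, edgeR adjusted p = 3.33e-07). In both genes every library at 800 CH was far above every library at 400 CH. Prupe.7G168200 rose likewise, with 15, 18.2 and 10.9 CPM at 800 CH, against 0.747, 1.3 and 1.67 CPM at 400 CH (3.55 ± 0.39, edgeR adjusted p = 6.6e-07). Of the 4 that fell, Prupe.6G207900 had 1.03, 0.794 and 0.576 CPM at 800 CH, against 8.0, 8.33 and 10.5 CPM at 400 CH (-3.47 ± 0.67, edgeR adjusted p = 0.00293). Prupe.1G497900 (1.83, 5.7 and 4.03 CPM against 14.5, 21.2 and 21.7 CPM, -2.28 ± 0.49, edgeR adjusted p = 0.0323) lost its call when any of 4 of the 6 libraries was left out. Prupe.6G324100 had 8.1, 8.23 and 4.92 CPM at 800 CH, against 31.7, 32.7 and 23.3 CPM at 400 CH (-2.02 ± 0.30, edgeR adjusted p = 0.00489), and was not called without A1267 800 CH replicate 3.

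No peach library entered the rule, so peach gave values of the same gene models in other plants. In low chill peach the 150 genes were together highest at 600 CH: their summed level was 824 to 1303 CPM (median 1040) at 0 CH, 994 to 1220 CPM (median 1070) at 100 CH, 7599 to 45764 CPM (median 11138) at 600 CH and 1981 to 15057 CPM (median 2753) in the libraries labelled pre-bloom. The 600 CH libraries of A209 spread widely, with 7753, 45764, 10512 and 24789 CPM, while A340 had 15616, 7599, 11763 and 9159 CPM. All 8 were above all libraries at 0 and 100 CH. In high chill peach the sum was 667 to 1151 CPM at 0 CH, 921 to 1179 CPM at 100 CH, 1025 to 1484 CPM at 600 CH, 1649 to 5359 CPM (median 2696) at 1000 CH and 2856 to 4856 CPM (median 3294) at pre-bloom. Here the level stayed low through 600 CH, and the 1000 CH and pre-bloom libraries overlapped. The shallowest library at 1000 CH, A318 replicate 1 with 529219 reads, had a sum of 4378 CPM.

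**Figure D3:**
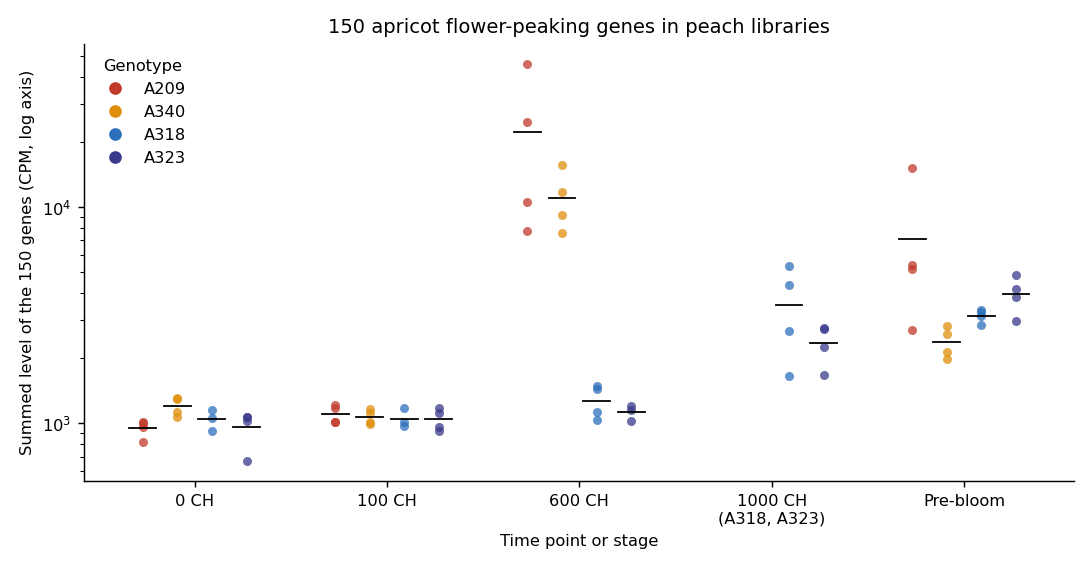
Summed level of the 150 genes in every peach library (CPM, log axis) by time point or stage, coloured by genotype; points are libraries and bars are means. Low chill A209 and A340 reach 7599 to 45764 CPM at 600 CH, and high chill A318 and A323 stay at 1025 to 1484 CPM there.

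The time point of the highest mean was counted for each gene. In low chill peach, 111 of the 150 genes (74.0%) were highest at 600 CH, against 34.8% of all genes with reads, and 12 (8.0%) were highest in the libraries labelled pre-bloom, against 17.5% of all genes. In high chill peach, 49 genes (32.7%) were highest at 1000 CH, against 26.7% of all genes, and 68 (45.3%) at pre-bloom, against 25.4% of all genes. Of the 150 genes, 142 passed the filter on low counts in peach and 8 were not tested there. In none of the peach comparisons below were 38 of the 150 called, and these 38 include the 8 not tested. The share of all genes called in none was not counted, so the 38 are not read as particular to the set. One that was not tested, the methyltransferase gene Prupe.8G092800, was at no more than 0.554 CPM at 600 CH in low chill peach and at 0 in all 16 pre-bloom libraries.

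Low chill peach buds at 600 CH were then compared with those at 100 CH. At 600 CH, 92 of the 150 genes rose and 6 fell relative to 100 CH (edgeR test against a 2-fold change, Benjamini-Hochberg adjusted over 22574 genes), beside 8.53% of all genes tested that rose and 3.68% that fell. The 8 libraries of each time point did not overlap for 76 of those that rose and for 4 of those that fell, beside 5.74% and 2.78% of all genes tested. The median log2 fold change of the 142 genes tested was 3.10, against 0.04 for all genes tested. With the genotypes apart, A209 gave 84 higher, beside 6.66% of all genes, and A340 gave 73 higher, beside 6.76%. Leaving out any 1 library gave 85 to 93 higher.

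The genes of this step that changed most had been near 0 at 100 CH. Prupe.I000200 had 17.0 to 331 CPM (median 40.5) at 600 CH, against 0 to 0.914 CPM (median 0.308) at 100 CH, a log2 fold change of 7.71 ± 0.70 (edgeR adjusted p = 4.6e-13). Prupe.6G267700 had 27.1 to 830 CPM (median 80.5) at 600 CH, against 0.176 to 1.94 CPM (median 0.516) at 100 CH (7.54 ± 0.73, edgeR adjusted p = 3.95e-12). In both genes the highest library was A209 600 CH replicate 2. Prupe.1G123100, the third most abundant gene of apricot flowers, had 124 to 1569 CPM (median 486) at 600 CH, against 1.25 to 9.03 CPM (median 1.79) at 100 CH (7.38 ± 0.66, edgeR adjusted p = 1.95e-13). Of the annotated genes, SAG29 (Prupe.1G220700) had 91.6 to 347 CPM (median 142) at 600 CH, against 0.617 to 3.31 CPM (median 2.04) at 100 CH (6.37 ± 0.41, edgeR adjusted p = 5.49e-18). The Kunitz inhibitor gene Prupe.4G155200 (6.52 ± 0.63), the peroxidase gene Prupe.6G239400 (5.73 ± 0.53), the bHLH gene Prupe.2G230000 (4.71 ± 0.52) and the chitinase gene Prupe.1G204700 (3.22 ± 0.54) rose too. The AZG1 gene (0.87 ± 0.24), the STK gene (0.74 ± 0.52) and the glucosyl transferase gene (1.49 ± 0.96) did not pass the test.

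The genes that fell included Prupe.1G242300, Prupe.4G194100 and Prupe.6G267800, in each of which the libraries of the time points did not overlap. Prupe.1G242300 had 0.799 to 4.37 CPM (median 1.42) at 600 CH, against 19.3 to 60.5 CPM (median 35.7) at 100 CH (-4.52 ± 0.37, edgeR adjusted p = 2.74e-13). Prupe.4G194100 had 2.39 to 11.8 CPM (median 4.12) at 600 CH, against 22.3 to 86.9 CPM (median 57.5) at 100 CH (-3.61 ± 0.33, edgeR adjusted p = 5.44e-11), while dormant apricot buds held at most 0.241 CPM of it. In apricot flowers this gene had 17.5, 20.1 and 24.6 CPM in A2137 and 0.565 and 1.07 CPM in A1956. Prupe.6G267800 had 4.96 to 12.2 CPM (median 6.62) at 600 CH, against 26.9 to 81.5 CPM (median 47.2) at 100 CH (-3.02 ± 0.31, edgeR adjusted p = 1.38e-08), although its neighbour Prupe.6G267700 rose.

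Markers of pollen development and of dormancy moved with this step. The 3 tapetum genes were all called higher, and their summed level was 299 to 2319 CPM in A209 and 24.7 to 1929 CPM in A340 at 600 CH, against 1.46 to 13.3 CPM in A209 and 2.2 to 22.5 CPM in A340 at 100 CH. These genes were also at 1884 to 2094 CPM in A2137 at 400 CH, where the 150 genes summed to only 756 and 889 CPM. The 3 pollen genes were all called higher too, with sums of 366 to 738 CPM in A209 and 395 to 549 CPM in A340 at 600 CH, against 1.13 to 5.65 CPM in A209 and 0.75 to 6.4 CPM in A340 at 100 CH. All 5 dormant bud genes were called lower, with sums of 273 to 484 CPM in A209 and 253 to 643 CPM in A340 at 600 CH, against 2791 to 6037 CPM in A209 and 3466 to 5572 CPM in A340 at 100 CH. The part of these markers in the rise of the 150 genes at 600 CH was not tested.

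**Figure D4:**
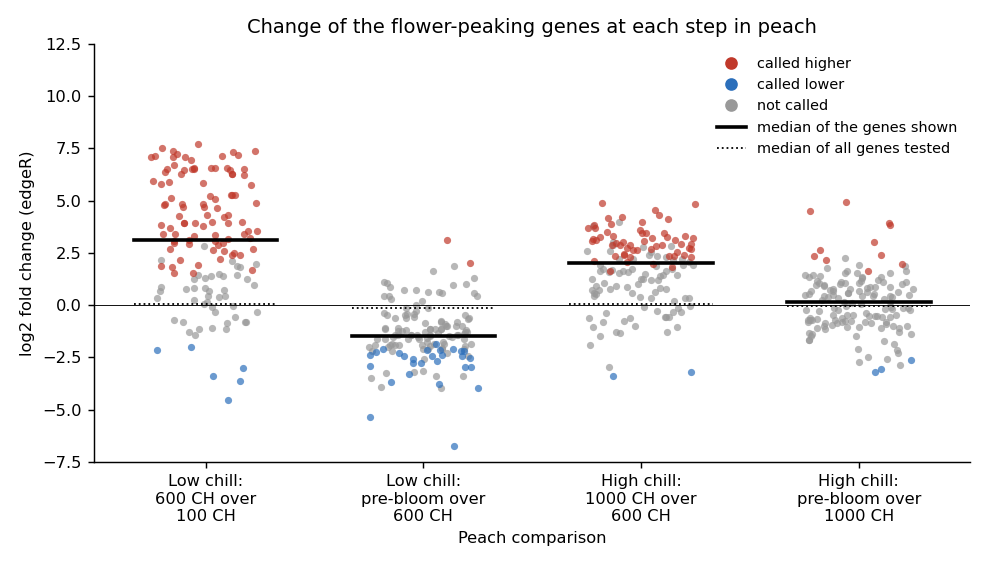
Fitted log2 fold change (vertical axis) of the 142 genes tested in each of 4 peach comparisons; points are genes, coloured by call, the thick bar is their median and the dotted bar the median of all genes tested. The medians are 3.10 and -1.48 for the steps of low chill peach and 2.01 and 0.13 for those of high chill peach.

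The libraries of low chill peach labelled pre-bloom were compared with those at 600 CH, which also served in the step before. Relative to 600 CH, 2 of the 150 genes rose and 28 fell (edgeR test against a 2-fold change), beside 1.9% of all genes tested that rose and 3.26% that fell, and the median log2 fold change of the 142 genes tested was -1.48, against -0.16 for all genes. The libraries did not overlap for 4 of the 28, beside 1.39% of all genes tested. This count depended on single libraries: it was 12 without A209 600 CH replicate 2, 46 without A209 pre-bloom replicate 3 and 6 without both A209 600 CH replicates 2 and 4, a setting chosen after the values were seen. Without the 9 shallowest peach libraries, 14 fell and none rose, with A209 alone 9 fell, beside 1.64% of all genes, and with A340 alone 18 fell, beside 2.11%. Of the 5 dormant bud genes, DAM5 (log2 fold change 2.58), DAM6 (2.32), the LEA gene (1.84) and CAP160 (1.83) were called higher in these libraries, and DAM4 (-0.70) was not called. The 3 tapetum genes were called lower, with sums of 8.95 to 135 CPM in A209 and 15.6 to 73.8 CPM in A340 labelled pre-bloom, against 299 to 2319 CPM in A209 and 24.7 to 1929 CPM in A340 at 600 CH. Of the 3 pollen genes 2 were called lower and Prupe.4G061100 (-2.0) was not, with sums of 27.4 to 131 CPM in A209 and 27.8 to 83.6 CPM in A340 labelled pre-bloom, against 366 to 738 CPM in A209 and 395 to 549 CPM in A340 at 600 CH. The part of these markers in the fall of the 28 genes was not tested. Whether these libraries were taken at the stage they are labelled with was not tested.

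SAG29 fell in this comparison, with 6.29 to 20.4 CPM (median 9.98) in the libraries labelled pre-bloom, against 91.6 to 347 CPM (median 142) at 600 CH (-3.66 ± 0.37, edgeR adjusted p = 9.66e-09). The peroxidase gene Prupe.6G239400 had 0 to 1.55 CPM (median 0.753) in the libraries labelled pre-bloom, against 3.76 to 23.2 CPM (median 10.9) at 600 CH (-3.80 ± 0.53, edgeR adjusted p = 1.2e-05). Neither gene overlapped between the groups. Prupe.2G085600 was at 0 in all 8 libraries labelled pre-bloom, against 0.145 to 3.57 CPM at 600 CH, a level too low for a fold change. Prupe.1G242300 was one of the 2 that rose (2.03 ± 0.39, edgeR adjusted p = 0.0276), with 1.73 to 12.6 CPM (median 7.53) against 0.799 to 4.37 CPM (median 1.42) and overlapping libraries.

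In high chill peach, 1000 CH was compared with 600 CH. By the chilling requirements that the paper lists, A323 was still short of its own at 1000 CH. A318 had passed its requirement by then, but its 1000 CH libraries lay nearer to endodormant buds in the paper's clustering. At 1000 CH, 57 of the 150 genes rose and 2 fell (edgeR test against a 2-fold change), beside 8.28% of all genes tested that rose and 1.62% that fell, and the median log2 fold change of the 142 genes tested was 2.01, against 0.06 for all genes. The libraries did not overlap for 16 of those that rose and for 1 of those that fell, beside 1.87% and 0.864% of all genes tested. A318 alone gave 40 higher, beside 8.82% of all genes, and A323 alone gave 28, beside 1.94%. The number of higher genes was 38 without A318 1000 CH replicate 4. Of the 57 genes, 46 (80.7%) had also risen in low chill peach at 600 CH, where 92 of the 142 genes tested rose. The same overlap over all genes was not counted, so it is not read as particular to the 150 genes. The 2 steps share no library.

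The genes of largest change without overlap here were Prupe.1G093600, Prupe.1G203300 and Prupe.2G085000. Prupe.1G093600 had 7.41 to 80.4 CPM (median 19.4) at 1000 CH, against 0.312 to 5.92 CPM (median 0.652) at 600 CH (4.23 ± 0.57, edgeR adjusted p = 3.7e-06). Prupe.1G203300 had 2.65 to 14.8 CPM (median 6.01) at 1000 CH, against 0.112 to 1.48 CPM (median 0.296) at 600 CH (3.99 ± 0.68, edgeR adjusted p = 0.000228). Prupe.2G085000 had 37.7 to 168 CPM (median 51.4) at 1000 CH, against 1.01 to 25.1 CPM (median 2.61) at 600 CH (3.69 ± 0.55, edgeR adjusted p = 3.6e-05). In the opposite direction, Prupe.1G242300 had 2.28 to 22.7 CPM (median 12.2) at 1000 CH, against 43.9 to 166 CPM (median 88.2) at 600 CH (-3.39 ± 0.37, edgeR adjusted p = 4.04e-07). It was the only gene of the 150 that fell both here and in low chill peach at 600 CH, and Prupe.7G132800 was the other that fell here (-3.18 ± 0.89), at levels of at most 3.64 CPM and with overlapping libraries. Among the annotated genes the chitinase gene (3.68 ± 0.67), the Kunitz inhibitor gene (3.27 ± 0.65) and SAG29 (1.83 ± 0.38) rose, and the peroxidase gene (2.20 ± 0.58, edgeR adjusted p = 0.0501) just missed the threshold.

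The same markers moved at 1000 CH. Of the tapetum genes, MS2 (3.78) and LAP6 (2.97) were called higher and the chalcone and stilbene synthase gene (1.09) was not, with sums of 46.7 to 153 CPM in A318 and 41.7 to 86.0 CPM in A323 at 1000 CH, against 17.7 to 36.9 CPM in A318 and 4.21 to 6.03 CPM in A323 at 600 CH. Of the pollen genes, Prupe.4G061100 (2.65) and Prupe.1G133700 (3.20) were called higher and Prupe.3G204300 (1.73) was not, with sums of 27.3 to 58.6 CPM in A318 and 6.7 to 21.3 CPM in A323 at 1000 CH, against 1.59 to 9.59 CPM in A318 and 1.42 to 1.56 CPM in A323 at 600 CH. Of the dormant bud genes, DAM4 (-1.67), the LEA gene (-2.61) and CAP160 (-2.41) were called lower, and DAM5 (-1.48) and DAM6 (-1.26) were not. Their sums were 388 to 1944 CPM in A318 and 439 to 1059 CPM in A323 at 1000 CH, against 2578 to 4215 CPM in A318 and 5303 to 6824 CPM in A323 at 600 CH. The part of these markers in the rise of the 57 genes was not tested.

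In high chill peach, pre-bloom was compared with 1000 CH, and the 1000 CH libraries are those of the step before. At pre-bloom, 11 genes rose and 3 fell (edgeR test against a 2-fold change), beside 3.62% of all genes tested that rose and 3.9% that fell, and the median log2 fold change of the 142 genes tested was 0.13, against -0.05 for all genes. The libraries did not overlap for 9 of those that rose and 1 of those that fell, beside 1.91% and 1.78% of all genes tested. The number that rose was 7 without the 9 shallowest peach libraries, 7 in A318 alone, beside 2.71% of all genes, and 11 in A323 alone, beside 3.08%. All 5 dormant bud genes and the tapetum genes MS2 (-3.41) and LAP6 (-3.17) were called lower at pre-bloom, and their part in these changes was not tested. Prupe.4G092500 rose without overlap, with 33.2 to 125 CPM (median 74.8) at pre-bloom, against 2.26 to 9.93 CPM (median 6.21) at 1000 CH (3.85 ± 0.29, edgeR adjusted p = 5.5e-13). In apricot flowers this gene had 23.1, 15.6 and 21.6 CPM in A2137 and 7.15 and 7.63 CPM in A1956. Prupe.2G084900 had 3.63 to 29.4 CPM (median 11.1) at pre-bloom, against 0 to 1.89 CPM (median 0.388) at 1000 CH (4.95 ± 0.65, edgeR adjusted p = 6.62e-07). The top gene of the set, Prupe.4G097000, had 2.65 to 8.36 CPM (median 4.67) at pre-bloom, against 0 to 1.32 CPM (median 0) at 1000 CH (3.91 ± 0.83, edgeR adjusted p = 0.00295), and it lost the call in A318 alone and without the shallow libraries. Prupe.4G194100 fell, with 0.929 to 6.74 CPM (median 1.96) at pre-bloom, against 7.92 to 32.1 CPM (median 21.6) at 1000 CH (-3.08 ± 0.36, edgeR adjusted p = 1.35e-06).

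The difference between low and high chill peach in the last step to pre-bloom was tested in the same fit. Of the 142 genes tested, 63 had a lower change in low chill than in high chill peach and 6 a higher one at an edgeR interaction adjusted p below 0.05, beside 18.7% and 12.6% of all genes tested. The log2 difference was -6.83 ± 0.89 for Prupe.2G084900 (edgeR adjusted p = 1.2e-08), -4.88 ± 0.73 for the peroxidase gene (edgeR adjusted p = 3.62e-07) and -4.01 ± 0.38 for Prupe.4G092500 (edgeR adjusted p = 1.37e-12). It was 3.64 ± 0.51 for Prupe.4G194100 (edgeR adjusted p = 5.99e-08). The dormant bud markers ran in different directions over the same step, and stage and genotype class cannot be told apart in these groups.

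Position was a feature that the rule had not used. The 150 genes were spread over all 8 scaffolds (7 to 40 genes each), with 2 on unplaced sequence, and 59 of them lay in 23 runs in which neighbouring members were at most 10 gene models apart by their identifiers. Among the next 150 genes by rank, 33 lay in 16 runs, and the largest run held 3 genes, against 9 in the set. The share of all genes on each scaffold or in such runs was not counted, so these counts are not read as particular to the set. Reads of near-identical neighbours may have been split between them or dropped in counting, so values of genes within a run are uncertain. Such neighbours may also have entered the ranking together.

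The run of 9 genes lay on scaffold 2, from Prupe.2G084900 to Prupe.2G086000. Its summed level was 496 CPM in A2137 flowers and 512 CPM in A1956 flowers, so the sum did not show the excess of A2137 seen over the set. Prupe.2G084900 (215, 165 and 201 CPM in A2137 flowers, 223 and 255 CPM in A1956 flowers) and Prupe.2G085000 (187, 138 and 190 CPM against 180 and 198 CPM) made up most of it in both genotypes. The first was slightly higher in both A1956 flowers, and the second overlapped between the genotypes. The other genes of the run all had a higher mean in A2137 flowers. They ranged from Prupe.2G085700 (20.8 against 20.3 CPM) to Prupe.2G085600 (13.8 against 1.4 CPM), which was the only gene of the run called. In peach these neighbours parted. At 600 CH in low chill peach Prupe.2G085000 had 146 to 1916 CPM (median 492), against 0.921 to 11.1 CPM at 100 CH, while Prupe.2G084900 had 0.703 to 8.96 CPM (median 2.77), against 0 to 0.686 CPM at 100 CH. Both rose (7.08 ± 0.59 and 3.95 ± 0.58 on the log2 scale). In all, 8 of the 9 genes rose at 600 CH and Prupe.2G085300 fell (log2 fold change -2.02). Some rises started near the floor, so their size is uncertain. At 100 CH Prupe.2G085700 was at 0 in every library, Prupe.2G086000 at most at 0.114 CPM and Prupe.2G085600 at most at 0.71 CPM.

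**Figure D5:**
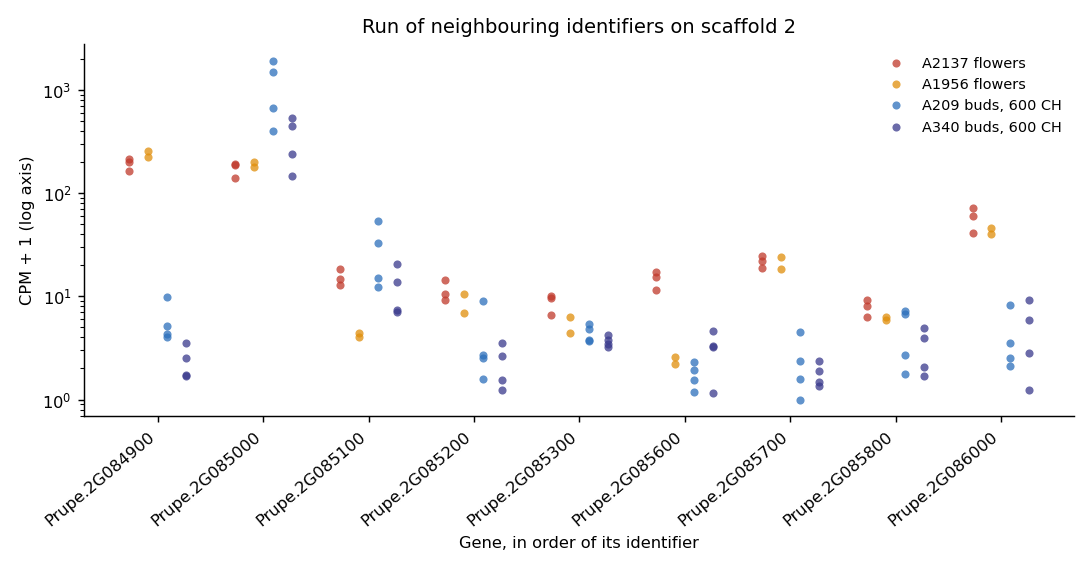
Level of the 9 genes of the scaffold 2 run (CPM plus 1, log axis) in every flower library of A2137 and A1956 and every 600 CH bud library of peach A209 and A340; each point is a library. Prupe.2G084900 and Prupe.2G085000 are alike in flowers, while in the peach buds the first stays below 10 CPM and the second is at 146 CPM or more.

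The other runs named here differed between the genotypes, in flowers that had chosen the genes. The 4 genes from Prupe.1G032400 to Prupe.1G033100 summed to 552 CPM in A2137 flowers and 36.9 CPM in A1956 flowers, and all rose at 600 CH in low chill peach. The 2 genes Prupe.3G279500 and Prupe.3G279700 summed to 66.7 CPM in A2137 flowers and 370 CPM in A1956 flowers. Prupe.7G090100 was higher in A2137 flowers and its neighbour Prupe.7G090200 lower.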

How the data were processed

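RNA was sequenced from 60 apricot and 69 peach libraries. Per the labels and the study's methods, the deposited files hold whole-number read counts per gene, 1 library per file, which the authors made by aligning reads to the peach genome v2.0 and counting reads in exons. The DAM gene counts came from the v1.0 annotation. The submitters' processing notes name STAR 2.5.3a and HTSeq. How reads of near-identical copies and of overlapping genes on opposite strands were counted is not given in the sources used here. Apricot reads were mapped to the peach genome, so genes that differ between the species may be undercounted in apricot.

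Each library was scaled to CPM by its total. The 150 genes and the lists of markers and annotations were chosen with earlier results of these data known. Tests were run on the counts with edgeR 4.0.16 (R 4.3.3) quasi-likelihood fits, 1 fit over the 24 apricot groups and 1 over the 18 peach groups, with TMM normalization, filterByExpr (minimum count 10, minimum total count 15), glmTreat against a 2-fold change and Benjamini-Hochberg adjustment over all genes, with a call at an adjusted p below 0.05. The difference between low and high chill peach was tested with glmQLFTest. The scripts were tested on simulated counts. The pseudocount of the rule was 1. Genes were named by rule: the 10 highest rule values, the genes beside the border, the 5 most abundant in flowers, up to 3 of each annotation list, and up to 3 in each direction of each comparison among those called without overlap between the groups. Genes named beyond these, such as other annotated genes and other members of runs, were chosen after their values were seen.

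Totals of 7593825 to 26253101 reads in apricot and 494799 to 26858662 in peach set the precision, and 9 peach libraries far below the median total were treated as shallow. The paper also reported contamination with ribosomal RNA in most peach libraries and removed those reads before alignment. It found their share to be a significant factor in the expression profiles, without a significant interaction with genotype or time point. That share was not part of the fits here. Counting intervals have a 95% level and cover counting error only. Alternatives were DESeq2 1.42.0, its size factors, no filter on low counts, a test against no change, the compared libraries alone, the replicate number as a block, no shallow libraries and leaving out each library. Others, chosen after the data were seen, were single peach genotypes, leaving out single high libraries, and members from other forms of the rule.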

Additional observations from a re-analysis of the deposited data

Results flagged for a closer look

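The summed level of the 150 genes in A323 at 0 CH replicate 1 was 667 CPM, against 1071, 1030 and 1071 CPM in the other A323 libraries at 0 CH, which put it apart from its group. Among 15 groups of 4 libraries tested in this way, this was the only one with a library apart, and chance gives about 1 in 20.

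The change from 600 CH to the libraries labelled pre-bloom in low chill peach differed from the change from 1000 CH to pre-bloom in high chill peach for several named genes (edgeR interaction test, Benjamini-Hochberg adjusted). The log2 difference, low minus high chill, was -6.83 ± 0.89 for Prupe.2G084900 (adjusted p = 1.2e-08), -4.88 ± 0.73 for the peroxidase gene Prupe.6G239400 (adjusted p = 3.62e-07) and -4.40 ± 1.13 for Prupe.4G097000 (adjusted p = 0.00181). It was -4.01 ± 0.38 for Prupe.4G092500 (adjusted p = 1.37e-12), -2.70 ± 0.49 for SAG29, Prupe.1G220700 (adjusted p = 1.58e-05), and 3.64 ± 0.51 for Prupe.4G194100 (adjusted p = 5.99e-08).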

How the results depend on the processing

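Of 29 results for named genes, 23 kept their call in every setting run on them, 13 of 566 settings lost a call and 0 turned a direction. These genes had the largest changes among calls without overlap, also in the flowers that chose the set. Kept calls were therefore likely and say little about the other members. Counts of members called moved more. DESeq2 called 42 genes higher in A2137 flowers, and 6 higher and 2 lower in A1267 at 800 CH. It called 80 higher at 600 CH, and 0 higher and 6 lower in low chill libraries labelled pre-bloom. At 1000 CH it called 38 higher and 1 lower, against 57 and 2 in the main fit. A test against no change gave 111 higher in A2137 flowers, 24 higher and 9 lower in A1267 at 800 CH, 11 lower at 600 CH, 5 higher and 75 lower in low chill pre-bloom, 7 lower at 1000 CH, and 25 higher and 12 lower in high chill pre-bloom. Fitting the compared libraries alone gave 0 higher in low chill pre-bloom, and 46 higher and 1 lower at 1000 CH. No filter on low counts gave 1 higher in low chill pre-bloom. Without shallow libraries, low chill pre-bloom had 0 higher and 14 lower and high chill pre-bloom 7 higher. In A209 alone low chill pre-bloom had 0 higher and 9 lower, and in A340 alone 18 lower. Without both high A209 libraries it had 0 higher and 6 lower. In A318 alone 1 gene was lower at 1000 CH and 7 were higher at pre-bloom, and in A323 alone 28 were higher and 1 lower at 1000 CH and 1 lower at pre-bloom. Members chosen by A2137 flowers alone gave 0 lower in A2137, by A1956 flowers alone 5 higher and 90 lower, and by the mean over genotypes 10 lower, and the rule on A1956 flowers alone kept 44 of the 150. The cause of these shifts was not tested.

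With the replicate block, low chill pre-bloom had 0 higher and 15 lower, and 1000 CH had 35 higher and 1 lower. Same-numbered libraries correlated by -0.063 and -0.037 in flowers and by -0.175 to 0.245 over the 4 peach comparisons. The other pairs had medians of 0.025 in flowers and -0.013 to 0.016 in peach, so the numbers showed no clear pairing there. In A1267 same-numbered libraries correlated by 0.045 to 0.338, against a median of -0.19 for the other pairs. Whether the numbers pair these buds cannot be told from so few libraries. The replicate block gave 6 higher and 3 lower in A1267 at 800 CH. Leaving out each library gave 44 to 77 higher and 4 to 6 lower in A2137 flowers, 6 to 10 higher and 1 to 3 lower in A1267 at 800 CH, 85 to 93 higher and 5 to 7 lower at 600 CH, 0 to 2 higher and 12 to 46 lower in low chill pre-bloom, 38 to 64 higher and 1 to 2 lower at 1000 CH, and 10 to 13 higher and 3 to 4 lower in high chill pre-bloom. Leaving out 1 flower library from the rule kept 136 to 144 of the 150. In peach, 3 reads corresponded to up to 6.06 CPM, which limits genes at low levels.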
